A study of Mus musculus with 4 samples.

Results

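The genes described here encode 10 subunits of the Polycomb repressive complexes, chosen by name: Ezh2, Eed, Suz12, Jarid2, Mtf2, Aebp2, Rnf2, Cbx7, Pcgf6 and Kdm2b. For each gene, every pair of genomic anchors with at least 1 anchor over an annotated transcription start site of that gene was taken from a table of H3K27ac HiChIP contacts. Of the 10 genes, 6 had such an anchor, and their 10 anchors took part in 950 of the 1513030 anchor pairs in the table. HiChIP ligates DNA ends that lie close together in fixed nuclei and enriches the ligated fragments with an antibody, here against histone H3 acetylated at lysine 27, a mark of active promoters and enhancers. The cells were mouse embryonic stem cells of C57BL/6J mice, called B6 here, or of DBA/2J mice, called D2, unmodified as far as the labels say, from 2 lines of each strain with 1 library per line. All 4 lines were grown in serum with LIF, the MEK inhibitor PD0325901 at 1 µM and the GSK3 inhibitor CHIR99021 at 3 µM. The comparison of the 2 strains is the only one the design holds.

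Polycomb group proteins keep developmental genes silent in embryonic stem cells. Polycomb repressive complex 2 (PRC2) methylates the same lysine of histone H3 that is acetylated in active chromatin, and its catalytic subunit is EZH2, held together with EED and SUZ12. Polycomb repressive complex 1 (PRC1) places ubiquitin on histone H2A through RING1B, the product of Rnf2. Canonical PRC1 holds a CBX protein such as CBX7 that reads the methyl mark, whereas variant PRC1 complexes are recruited by other subunits, among them PCGF6 and the CpG island binding protein KDM2B. The genes that encode these proteins are themselves expressed in embryonic stem cells, and the contacts below are those of their own promoters, not of the sites that the complexes bind.

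The 4 libraries held 2767882 to 2944258 counted read pairs in the table. D2 replicate 1 stood apart: it had counts in 715798 anchor pairs, against 803268 to 833100 in the other 3 libraries, and its library name carries 10cyc where the others carry 8cyc, a mark the labels do not explain. Several values past or near the threshold, and some sums that lean on it, are given with and without it. Of 13 embryonic stem cell marker genes, 9 had a promoter anchor, and their summed CPM (counts per 1000000 counts of the library in the table) came to 2254 and 2443 in B6 against 3551 and 2326 in D2, highest in D2 replicate 1. The 9 had fold changes of both signs. Nanog (log2 fold change of D2 over B6 0.56) and Sox2 (0.50) passed the strain test described below, as did 13.3% of all promoters. Tbx3 (0.40), Zfp42 (0.34), Dppa5a (0.30) and Tdgf1 (0.12) also lay above 0 and did not pass. Klf4 (-0.31), Pou5f1 (-0.24) and Prdm14 (-0.14) lay below 0 and did not pass. Nanog had 496 and 518 CPM in B6 against 981 and 588 in D2. Sox2 had 173 and 213 against 332 and 242. Both were highest in D2 replicate 1, and their fold changes without it are not given. Klf2, Klf5, Esrrb and Tfcp2l1 had no anchor. Of 8 fibroblast markers, which would mark feeder cells, 2 had an anchor, with summed CPM of 10.8 to 15.1.

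The genes without an anchor were Suz12, Jarid2, Mtf2 and Cbx7. This was no rare state, because 6811 of the 20807 protein-coding autosomal genes (32.7%) had no anchor over a start site. SUZ12 is the PRC2 subunit on which the others assemble, and the start sites of its gene lay in a stretch of 92.1 kb between adjacent anchors. The first start lay 42.7 kb and 49.4 kb from these anchors, and the closest of its 5 start sites lay 17299 bp from an anchor. Jarid2, a DNA-binding PRC2 accessory subunit, lay in the longest stretch, 211.1 kb. Mtf2, one of the Polycomb-like proteins that bring PRC2 to CpG islands, lay in a stretch of 90.5 kb, and Cbx7 in one of 72.5 kb. The median stretch between neighbouring anchors was 11.22 kb over the table and 97.02 kb around genes without an anchor, of which 62.16% had one of at least 72.5 kb. Of the sites of DpnII, the enzyme that cut the chromatin at GATC, 22 to 27 lay within 5 kb of the first start of these 4 genes, against 19 to 27 for the other 6. The part of cut sites in the missing anchors was not tested.

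Jarid2 did carry 4 anchors inside its gene body, all over exons downstream of its start sites. The first of them, 35923 bp from the nearest Jarid2 start, had 22.3 and 27.5 CPM in the B6 libraries and 21.7 and 23.4 in D2. Across the 4 anchors the log2 fold change of D2 over B6 ran from -0.27 to -0.03, and none passed the test (adjusted p from 0.424 to 0.943, edgeR's quasi-likelihood test). The strains overlapped at 3 of them, and at the anchor with log2 fold change -0.03 both D2 values lay below both B6 values.

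The other 6 genes had anchors of very different width. Aebp2 had 1 anchor of 79.4 kb, Eed 1 of 39.1 kb and Pcgf6 1 of 13.4 kb. Ezh2 had 2 anchors (29.2 and 2.2 kb), Rnf2 had 2 (13.1 and 8.2 kb) and Kdm2b had 3 (63.6, 23.2 and 20.2 kb). The median over all 13996 protein-coding genes with an anchor was 8.68 kb in sum. None of the 6 genes shared its anchors with the start site of another protein-coding gene, although the Aebp2 anchor reaches into an exon of Plekha5 and a Kdm2b anchor into an exon of Rnf34.

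Shown are promoters of Aebp2 and Pcgf6, which have the largest fold changes below, and of Kdm2b, which has the largest total, beside that of Suz12, which had no anchor. They are RefSeq windows of 250 bases before a start on GRCm38.p6, with bases inside an annotated exon left out, 5′ to 3′ on the gene's strand. Capitals mark the GC box GGGCGG, which SP-family factors bind, and the CCAAT box CCAAT, each on either strand.
Aebp2, chr6:140624659-140624908, plus strand: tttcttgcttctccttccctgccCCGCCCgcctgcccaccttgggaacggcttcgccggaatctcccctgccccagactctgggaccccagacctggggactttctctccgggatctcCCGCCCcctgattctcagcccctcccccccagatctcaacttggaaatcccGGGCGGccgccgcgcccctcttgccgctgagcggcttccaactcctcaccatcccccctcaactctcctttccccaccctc
Pcgf6, chr19:47050907-47051156, minus strand: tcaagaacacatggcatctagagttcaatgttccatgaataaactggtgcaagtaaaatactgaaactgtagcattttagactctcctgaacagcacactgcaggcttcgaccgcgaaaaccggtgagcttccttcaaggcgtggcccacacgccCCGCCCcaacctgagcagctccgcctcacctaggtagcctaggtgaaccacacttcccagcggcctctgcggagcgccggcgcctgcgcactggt
Kdm2b, internal start, chr5:122900356-122900600, minus strand: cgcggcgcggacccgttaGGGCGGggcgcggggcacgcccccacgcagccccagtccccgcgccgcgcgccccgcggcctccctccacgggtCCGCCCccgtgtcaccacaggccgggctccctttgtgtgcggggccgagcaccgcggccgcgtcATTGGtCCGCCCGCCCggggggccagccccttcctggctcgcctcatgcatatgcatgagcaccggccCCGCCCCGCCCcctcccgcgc
Kdm2b, upstream start, chr5:122988537-122988757, minus strand: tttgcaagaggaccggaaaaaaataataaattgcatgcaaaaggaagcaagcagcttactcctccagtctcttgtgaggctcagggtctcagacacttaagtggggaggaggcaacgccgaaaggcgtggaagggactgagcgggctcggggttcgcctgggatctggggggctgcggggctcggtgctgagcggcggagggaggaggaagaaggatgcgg
Suz12, no anchor, chr11:79992856-79993105, plus strand: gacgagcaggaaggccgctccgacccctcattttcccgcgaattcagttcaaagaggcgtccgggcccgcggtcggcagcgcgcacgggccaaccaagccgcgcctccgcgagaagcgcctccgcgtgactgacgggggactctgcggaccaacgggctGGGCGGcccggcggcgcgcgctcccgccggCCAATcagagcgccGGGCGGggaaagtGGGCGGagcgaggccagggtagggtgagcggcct
The Kdm2b internal start had 6 GC boxes and 38 CpG dinucleotides in its 250 bases, the upstream window shown had no GC box and 12 CpG, and the Aebp2 window shown had 3 GC boxes and 14 CpG. Other windows of these genes differed: a further upstream Kdm2b window had 1 GC box and 27 CpG, and the 2 other Aebp2 windows had 0 and 1 GC boxes with 1 and 3 CpG. Suz12, with no anchor, had 3 GC boxes and 37 CpG, so a CpG-rich promoter was present on both sides of that division. Over 19174 such windows, 44.56% held a GC box, 34.73% a CCAAT box, and the median was 11 CpG. A match to these letters is a description and does not show that a factor binds.

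The total contact count of each promoter was then compared between strains, counting each anchor pair once (plot of promoter totals by library). No promoter of the 6 was called changed by edgeR's quasi-likelihood test (adjusted p under 0.05), where 13.3% of 13826 protein-coding promoters were called. At an unadjusted p under 0.05, 2 of the 6 passed against 25.3% of all, and DESeq2's Wald test also called 0, where it called 5.53% of all. The CPM of the strains did not overlap for 3 of the 6 genes, against 56.4% of all promoters tested. The median log2 fold change was -0.05 over the 6 genes and 0.01 over all promoters.

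**Figure D1:**
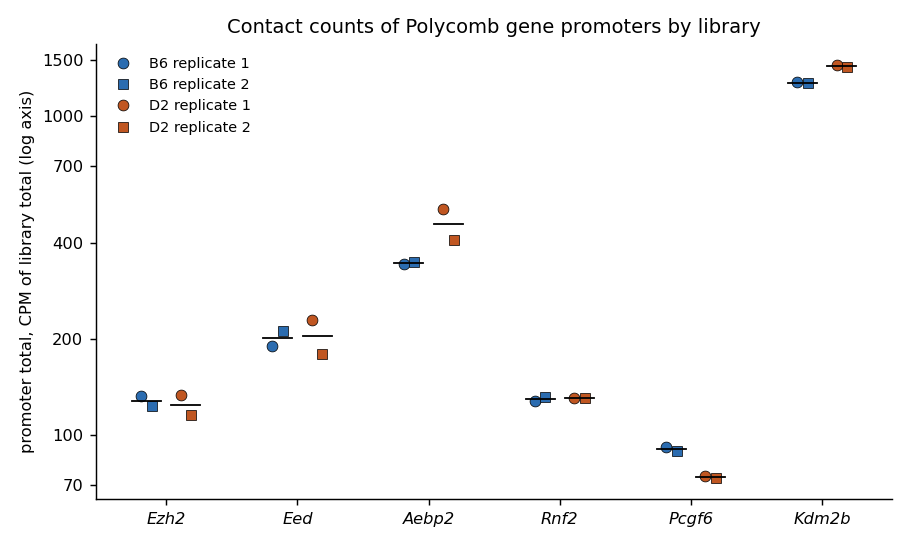
Promoter totals of the 6 Polycomb genes with an anchor, in CPM of the library total on a log axis, with 1 point per library and a bar at the mean of each strain (n = 2). Kdm2b lies highest at 1271 to 1453 CPM, and the strains separate for Aebp2, Pcgf6 and Kdm2b.

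Of the PRC2 core, the Ezh2 promoter had 132 and 124 CPM in B6 and 134 and 116 in D2, and the strains overlapped. The fit gave a log2 fold change of -0.11 (SE 0.128, adjusted p = 0.666). The Eed promoter had 190.1 and 212 CPM in B6 and 229.8 and 180.0 in D2, so that the highest and the lowest of its values both came from D2. EED binds the methyl mark and stimulates EZH2, and its promoter's log2 fold change was -0.05 (SE 0.126, adjusted p = 0.871). That sign depended on the scaling, as 0.02 was obtained with library totals alone.

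Aebp2 encodes a PRC2 accessory subunit that stimulates the enzyme and occurs together with JARID2. Its promoter had 345 and 349.9 CPM in B6 and 512 and 411 in D2, with both D2 libraries above both B6 libraries and D2 replicate 1 the highest. The means were 347 ± 3.79 and 461 ± 71.9 (SD, n = 2 each). The log2 fold change of 0.34 (SE 0.121) was the second largest in size among the 6 and just missed the threshold (adjusted p = 0.0566). Without D2 replicate 1 it was 0.19 (adjusted p = 0.319), and without D2 replicate 2 it was 0.48 (adjusted p = 9.22e-05), which would pass. Scaling by library totals alone gave 0.41 (adjusted p = 0.0265). The 9 stem cell marker promoters were also highest in D2 replicate 1 in sum, though Klf4 and Prdm14 were highest in B6 replicate 2, and their part in the Aebp2 value was not tested.

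Of the PRC1 genes, Rnf2 was the most even, with 128 and 132 CPM in the B6 libraries against 131 and 131 in D2. The fitted log2 fold change was -0.05 (SE 0.125, adjusted p = 0.841), and 0.01 with library totals alone. Pcgf6, whose product defines the variant PRC1 complex that acts with MGA and E2F6 on germline genes, had 91.8 and 89.6 CPM in B6 and 74.8 and 73.4 in D2. Both D2 values lay below both B6 values, by more than the spread within either strain. The log2 fold change was -0.36 (SE 0.139), the largest in size of the 6, with adjusted p = 0.0813. Without D2 replicate 1 it was -0.36 (adjusted p = 0.116).

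Kdm2b had the largest promoter total of the 6 genes and ranked 2 of 13996 protein-coding genes. Its product binds unmethylated CpG through a zinc finger and brings variant PRC1 to CpG islands. The promoter had 1282 and 1271 CPM in B6 and 1453 and 1431 in D2, with both D2 libraries above both B6 libraries. The log2 fold change was 0.11 (SE 0.120, adjusted p = 0.643), so that a separation of the strains in CPM did not come with a call. Its anchors were also among the widest, and per kb of anchor, Kdm2b had 12.7 CPM, at the 89.7th percentile of genes. The other 5 genes had 4.03 (Ezh2) to 6.17 (Pcgf6) CPM per kb, against a median of 5.95 over all genes.

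Contacts around each promoter were set beside it on the same scale. Pairs within 1 Mb of the promoter that did not use its anchors had a log2 ratio of D2 over B6, by library totals, of -0.28 around Pcgf6, where the promoter itself had -0.29. Around Kdm2b the values were 0.15 for the surroundings and 0.18 for the promoter. Around Aebp2 they were 0.19 and 0.41. Around Ezh2, Eed and Rnf2 the surroundings lay between -0.10 and -0.02. With D2 replicate 1 left out, the Aebp2 values were 0.19 for the surroundings and 0.24 for the promoter. The differences between promoter and surroundings were not tested.

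Tested by anchor, none of the 10 anchors was called by edgeR, where 9.75% of 51820 anchors were. At an unadjusted p under 0.05, 2 of the 10 passed against 21.9% of all, and DESeq2's Wald test called 0, where it called 2.52% of all. The strains did not overlap at 5 of the 10, against 49.5%. The Ezh2 anchors had fold changes of opposite sign: the narrow anchor, over the start of a non-coding transcript near the 3′ end of the gene, had 7.22 and 5.00 CPM in B6 and 10.1 and 9.17 in D2 (log2 fold change 0.68, SE 0.338, adjusted p = 0.226), and the wide anchor over the first start had -0.04 (adjusted p = 0.916). The 3 Kdm2b anchors gave 0.27, 0.12 and 0.15, all above 0 and none called (adjusted p from 0.457 to 0.758). For Aebp2 and Eed, with 1 anchor each, the counts by anchor and by promoter were the same numbers, yet the log2 fold changes were 0.45 and 0.07 by anchor against 0.34 and -0.05 by promoter. The counts being equal, the gap comes from the library scaling, which is set separately in each table.

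The individual contacts are the finest level of the data. Of the 950 anchor pairs, 195 reached 20 counts over the 4 libraries and could be tested, and these held 86.3% of the counts. Only 1 of the 195 was called changed by edgeR, against 1.45% of 108034 pairs, and it was higher in D2 (0.492% of all pairs were called in that direction). At an unadjusted p under 0.05 there were 13 of 195, against 11.7% of all. Both D2 libraries lay above both B6 libraries in 53 of the 195 and below in 23, against 23.8% and 17.9% of all pairs. The median log2 fold change was 0.07 over the 195 and 0.02 over all pairs. Among all pairs this median moved with the count, from -0.06 at 20 to 30 counts to 0.18 at 400 and more (plot of fold change against counts). With D2 replicate 2 left out 5 of 158 pairs were called, where 2.72% of all pairs were, and with any other library left out 0, where 0.432% to 0.841% were.

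**Figure D2:**
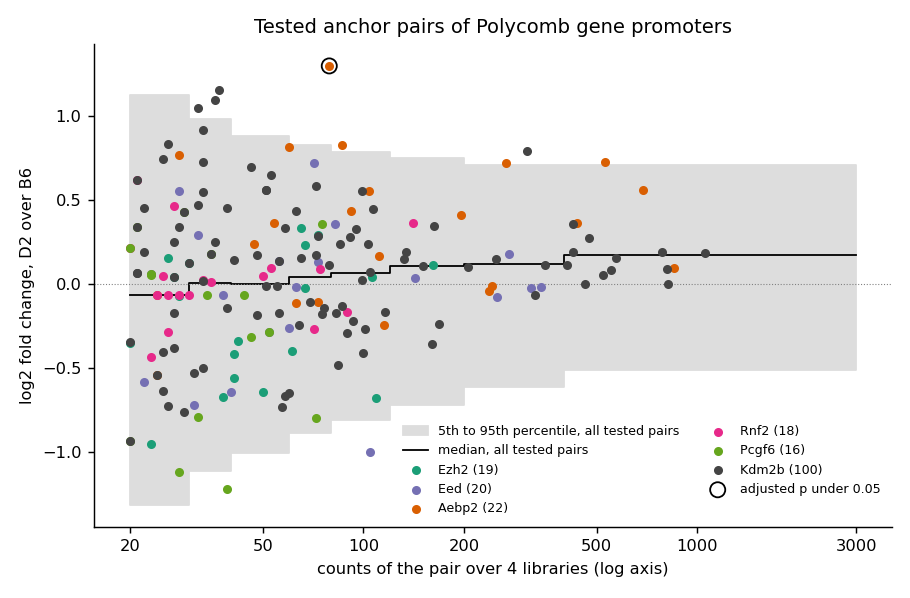
Log2 fold change of D2 over B6 of the 195 tested pairs against their counts on a log axis, coloured by gene with the number of pairs in brackets, over the 5th to 95th percentile (grey) and the median (line) of all tested pairs. Most points lie within the grey range, and the only circled pair, past the adjusted threshold, belongs to Aebp2 at 1.30.

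The called contact joined the Aebp2 promoter anchor to an intergenic anchor at chr6:141583180-141603884, 962.5 kb away, whose nearest coding start is that of Slco1b2, a gene of an organic anion transporter, 25634 bp off. The B6 libraries had 12 and 10 counts and the D2 libraries 36 and 21, and the strains did not overlap. The log2 fold change was 1.30 (SE 0.376, adjusted p = 0.0421). Without D2 replicate 1 it was 0.82 (adjusted p = 0.631), and the call was also lost without B6 replicate 1 (adjusted p = 0.342) or B6 replicate 2 (adjusted p = 0.411). Both anchors begin at a DpnII site, in capitals in their first 40 bases on the plus strand of GRCm38.
Aebp2 anchor, chr6:140591386-140591425: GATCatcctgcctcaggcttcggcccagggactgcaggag
Partner anchor, chr6:141583180-141583219: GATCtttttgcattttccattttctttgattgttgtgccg

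Most Aebp2 contacts were far shorter. The strongest led to the 3′ part of Aebp2 itself, 48.0 kb away between anchor midpoints, with 223 and 181 counts in B6 and 224 and 227 in D2 (log2 fold change 0.09, adjusted p = 0.919). Edge to edge it is short, as the promoter anchor ends at 140670736 and this partner begins at 140672422. On the other side lies Plekha5, which encodes a pleckstrin homology domain protein, and 9 anchors in it paired with the Aebp2 promoter. Their summed CPM was 169 and 180.3 in the B6 libraries against 286 and 227 in D2 (log2 ratio 0.55), while contacts with all other anchors had 176 and 169.6 against 227 and 184 (log2 ratio 0.25). With D2 replicate 1 left out, these ratios were 0.38 and 0.09. Both D2 libraries exceeded both B6 libraries in either class. The contact with a Plekha5 start 120.1 kb away had 92, 102, 177 and 159 counts (B6 first; log2 fold change 0.73, SE 0.225, adjusted p = 0.0711). Another at 96.8 kb, also over a Plekha5 start, had 58, 61, 58 and 66 counts (log2 fold change -0.01, adjusted p = 0.989). The difference between these contacts was not tested. Of the 22 tested pairs of Aebp2, 11 had both D2 libraries above both B6 libraries and 2 had them below, against 23.8% and 17.9% of all pairs. All 22 share the Aebp2 anchor, whose total was itself higher in D2, so they are not separate observations.

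**Figure D3:**
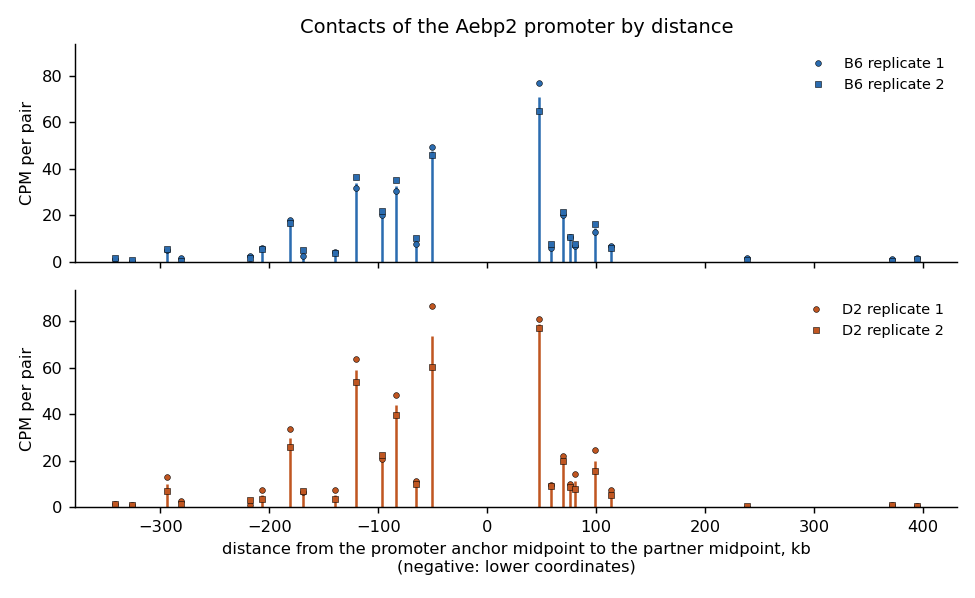
Contacts of the Aebp2 promoter anchor within 400 kb, as CPM per pair against the signed distance between anchor midpoints in kb, with 1 point per library and a line to the mean of each strain (n = 2). Contacts at lower coordinates, where Plekha5 lies, include several that stand higher in D2, whereas the contact at 48.0 kb on the other side is at a like height in both strains.

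Kdm2b had 458 pairs, of which 100 were tested. Contacts with anchors over other protein-coding starts held 66.6% of its counts. This was a larger share than for the other 5 genes (19.8% for Ezh2 to 58.6% for Pcgf6). Over all protein-coding promoters the share was 40.03%, but there each pair was counted once, also where both its anchors lay over coding starts. Counted for each promoter, such pairs would weigh more, so this share is not on the same measure as those by gene. The strongest led to Rnf34, a ubiquitin ligase gene, at 43.9 kb between midpoints, with 250 and 234 counts in B6 and 288 and 287 in D2 (log2 fold change 0.18, SE 0.215, adjusted p = 0.823). Edge to edge these anchors lie close together, as the Kdm2b anchor begins at 122869926 and the partner ends at 122867939. Contacts of the 3 anchors with the start of Orai1, which encodes the pore of a calcium channel, summed to 174 and 174 CPM in B6 and 191 and 204 in D2. The 3 anchors also met each other, and these 3 pairs held 11.4% of the gene's counts. Of the 100 tested pairs, 66 had a log2 fold change above 0 and 34 below, against 55248 above and 52786 below among all 108034 tested pairs. The 100 pairs share the 3 Kdm2b anchors, whose totals all had fold changes above 0, so they are not separate observations. Among all pairs the median also rose with the count, from -0.06 at 20 to 30 counts to 0.18 at 400 and more. The split was not compared at like counts.

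The Kdm2b contact with the smallest p led to an anchor over the starts of Rhof and Setd1b, 236.7 kb away. Setd1b encodes a histone methyltransferase for H3 lysine 4. The B6 libraries had 49 and 61 counts and the D2 libraries 129 and 70, with the highest in D2 replicate 1. The log2 fold change was 0.79 (SE 0.243, adjusted p = 0.0642). Without D2 replicate 1 it was 0.24 (adjusted p = 0.862), and without D2 replicate 2 it was 1.17 (adjusted p = 9.15e-05).

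Most counts of Eed lay on its upstream side, at higher coordinates, and the 28 of its 55 pairs on the other side held 25.4%. The strongest led to Picalm, a clathrin assembly gene, at 175.4 kb, with 75 and 92 counts in B6 and 96 and 77 in D2, overlapping. The contact with the smallest p was short, 22.1 kb, to an intergenic anchor 6277 bp from an Eed start. It had 32 and 37 counts in B6 and 19 and 17 in D2, with D2 below (log2 fold change -1.0, SE 0.327, adjusted p = 0.0996, and log2 fold change -1.12 without D2 replicate 1). An intergenic anchor at 31.1 kb in the same direction had 58 and 67 counts in B6 and 87 and 61 in D2, with the strains overlapping.

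Ezh2 made its strongest contact with Cul1, the scaffold of SCF ubiquitin ligases, at 129.4 kb, with 35 and 41 counts in B6 and 44 and 42 in D2. The second, to an exon of Cul1 at 99.3 kb, had 36 and 30 counts in B6 and 20 and 23 in D2, with both D2 values below (log2 fold change -0.68, SE 0.319, adjusted p = 0.361). These Cul1 anchors thus gave fold changes of opposite sign, 0.11 and -0.68, and neither passed the test. An anchor between them, in an intron of Cul1, had 7 and 5 counts in B6 and 6 and 8 in D2 (log2 fold change 0.15, adjusted p = 0.941). Anchors over no annotated start held 73.1% of the counts of Ezh2, the highest share of the 6 genes.

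Of the 169 pairs of Rnf2, 18 were tested. They held 53.4% of its counts, the lowest share of the 6 genes, against 63.8% over all protein-coding promoters. Of its pairs, 29.6% rested on a single count, against 33.5% over all protein-coding promoters. The strongest, which also had its smallest p, joined an Rnf2 anchor to an exon of the same gene 13.7 kb away, with 36 and 24 counts in B6 and 41 and 40 in D2 (log2 fold change 0.37, SE 0.291, adjusted p = 0.692). Pcgf6 had the lowest promoter total of the 6 genes, though at the 62.3rd percentile of all genes with an anchor, and 16 of its 116 pairs were tested. Its strongest contact led to an anchor over the starts of Ina and Nt5c2 at 30.8 kb, with 16 and 16 counts in B6 and 18 and 25 in D2, above B6 although the promoter total was below it. The contact with Sh3pxd2a, an invadopodia scaffold gene, at 284.0 kb had 14 and 13 counts in B6 and 5 and 7 in D2 (log2 fold change -1.22, SE 0.511, adjusted p = 0.271). Pcgf6 contacts with anchors over no start had 38.9 and 38.2 CPM in B6 against 26.0 and 28.5 in D2 (log2 ratio -0.50). Without D2 replicate 1 this ratio was -0.43, and without D2 replicate 2 it was -0.57. Those with anchors over coding starts had 51.6 and 50.0 CPM in B6 against 48.1 and 43.5 in D2 (log2 ratio -0.15). Their ratio was -0.22 without D2 replicate 1 and -0.08 without D2 replicate 2. D2 lay below B6 in both classes, and the difference between the classes was not tested.

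Partners named by a coding start came to 188 genes besides the members, 78 of them for Kdm2b. None was another of the 10 genes, and 0 of the 38 further Polycomb genes listed below was a partner. The table holds only pairs on the same chromosome, at most 1999998 bp apart. The 6 genes with an anchor lie on different chromosomes or, for Ezh2 and Aebp2, farther apart than that. Contacts between them could therefore not be seen, and genes without an anchor could not be partners at all. The same limits hold for the 38 further genes, and how many of them lay in reach of a member was not counted. The pairs carry a deposited value between 0 and 1 per library, taken here as the loop caller's q-value. It was under 0.01 in all 4 libraries for 152 of the 950 pairs and in none for 489. This was counted for these pairs only, so whether such shares are usual in the table is not known.

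Contact distance, as the count-weighted median per library, differed widely among the genes. It was 56.3 to 61.5 kb for Eed, 80.9 to 83.6 kb for Aebp2, 61.8 to 80.8 kb for Rnf2, 123 kb in every library for Kdm2b, 129 to 162 kb for Ezh2 and 133 to 239 kb for Pcgf6. A wide anchor cannot have a near midpoint, and the shortest distance was 48.0 kb for Aebp2 and 19.9 kb for Kdm2b, against 5.5 kb for Ezh2. The contacts named above at 48.0 kb (Aebp2), 43.9 kb (Kdm2b), 22.1 kb (Eed) and 13.7 kb (Rnf2) joined anchors whose edges lie close together. Most of each of these distances is anchor width. Contacts over 500 kb held 5.19% of the counts of Aebp2 and 19.0% of those of Pcgf6, against 17.6% for all protein-coding promoters (plot of contact distances). Over all coding promoters the median was 122.6 ± 1.35 kb in B6 and 110.4 ± 3.57 kb in D2. For the 6 genes together it was 113 kb in either strain, a difference of 0.313 kb, but Kdm2b held 59.0% of those counts. By gene, the mean of D2 minus that of B6 was -24.0 kb for Pcgf6, -9.50 kb for Rnf2 and 16.3 kb for Ezh2. For Pcgf6 the D2 medians, 239 and 133 kb, lay on either side of the 210 kb of both B6 libraries. Rnf2 had 72.3 and 80.8 kb in B6 and 61.8 and 72.3 kb in D2. The Ezh2 difference came from B6 replicate 1, at 129 kb against 162 kb in each of the other libraries. Such a median can only fall on the distance of a pair, so it moves in steps or stays the same. For Ezh2, 51.2% and 47.0% of the counts in B6 lay within 150 kb, against 48.8% and 49.9% in D2. These are values, and no test was run on them. An exact permutation test of 2 libraries against 2 cannot give a p under 0.333.

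**Figure D4:**
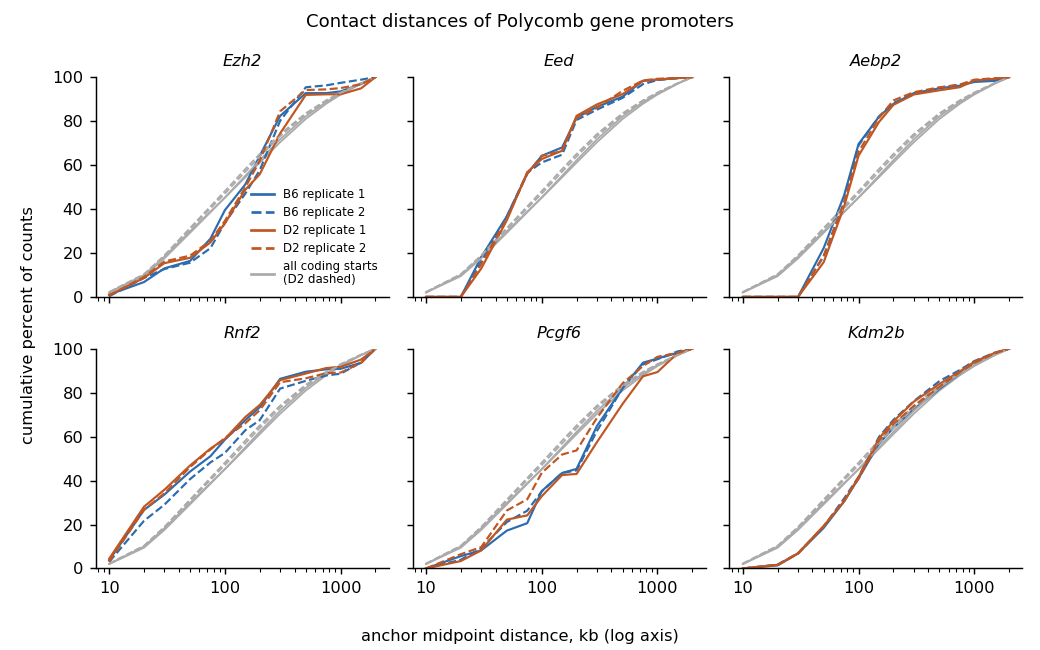
Cumulative percent of counts against the distance between anchor midpoints in kb (log axis), for each of the 6 genes by library, over the curves of all protein-coding promoters in grey. Eed, Aebp2 and Rnf2 run above the grey curves between 100 and 500 kb, and the Pcgf6 curves run mostly below them up to 200 kb.

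The rest of the Polycomb machinery was read from a list of 38 genes. Of these, 31 had a promoter anchor, Rbbp7, Bcor and Bcorl1 are not autosomal and so lie outside the table, and Pcgf2, Rybp, Phc1 and Usp7 had none. In the same test 1 of the 31 was called, higher in D2, where 13.3% of all promoters were called in either direction and 3.49% higher in D2. At an unadjusted p under 0.05 there were 2, against 25.3% of all. The strains did not overlap for 18 of the 31, against 56.4% of all promoters. The median log2 fold change was 0.08 with 19 above 0, against 0.01 over all promoters (plot of promoter fold changes). With D2 replicate 2 left out 4 of the 31 were called, where 23.9% of all promoters were.

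The called gene was Fbrs, whose product fibrosin belongs to the AUTS2 family of variant PRC1 subunits. It had 328 and 313 CPM in B6 and 504 and 389.9 in D2, with both D2 libraries above both B6 libraries. The log2 fold change was 0.41 (SE 0.123, adjusted p = 0.0218). Without D2 replicate 1 it was 0.23 (adjusted p = 0.188), and the call was also lost without B6 replicate 1 (adjusted p = 0.208) or B6 replicate 2 (adjusted p = 0.315). Its anchor also covers the start of Prr14, so the count cannot be given to either gene alone. Epop, a PRC2 partner that links the complex to Elongin, had 347 and 333 CPM in B6 and 451 and 398 in D2 (log2 fold change 0.25, SE 0.117, adjusted p = 0.167).

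By complex, the further PRC2 genes had log2 fold changes from -0.13 (Ezh1, the second catalytic subunit) to 0.25 (Epop), with Rbbp4 at -0.03. Ring1, the paralog of Rnf2, had -0.11, on an anchor that also covers the starts of H2-Ke6, Rxrb and Slc39a7. Rbbp4, Bmi1, Cbx6, Wdr5 and Csnk2b share an anchor with other coding genes as well. Among the CBX genes, Cbx2 had -0.17, Cbx6 -0.05 and Cbx8 0.38, and none of these passed the test. Of the PCGF genes, Bmi1 had 0.28, Pcgf3 0.18, Pcgf1 0.13 and Pcgf5 -0.14. The partners of PCGF6 in its complex had -0.13 for Mga, 0.09 for Max, 0.11 for L3mbtl2 and -0.42 for E2f6, beside -0.36 for Pcgf6 itself. E2f6 rested on 196 counts, and its strains did not overlap (18.6 and 20.0 CPM in B6, 16.3 and 13.9 in D2, SE 0.244, adjusted p = 0.286).

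**Figure D5:**
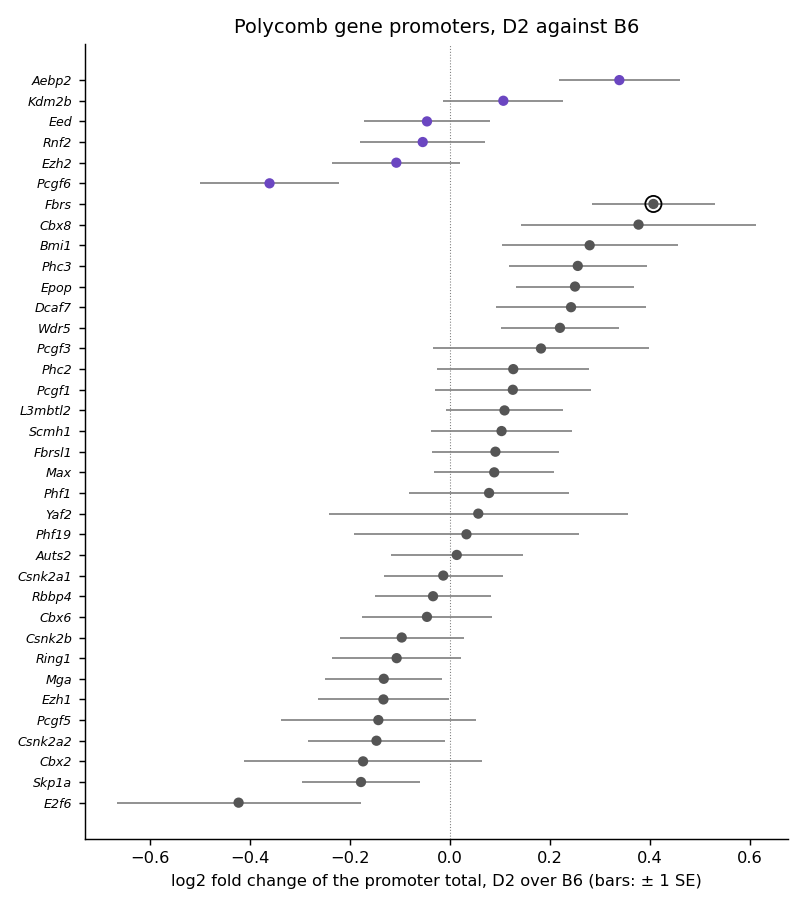
Log2 fold change of promoter totals, D2 over B6, with bars of 1 SE, for the 6 genes with an anchor (purple, top) and 30 further Polycomb genes (grey), each set sorted by value. Fbrs, circled at 0.41, is the only one past the adjusted threshold, and E2f6 and Pcgf6 lie lowest at -0.42 and -0.36.

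The promoters most like Aebp2 in their pattern were sought on other chromosomes, among genes with at least 50% of its counts, by the Euclidean distance of log2 CPM centred per gene over the 4 libraries. G3bp2, a stress granule gene, was nearest at 0.0236, with 211 and 216 CPM in B6 and 316 and 257 in D2. Txnip, a thioredoxin-binding protein gene, and Gm16253 share an anchor and its counts, and both lay at 0.0252. With 4 libraries such likeness is a description of these libraries only.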

How the data were processed

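The deposited table gives raw read-pair counts per anchor pair for each library; per the submitters' processing notes the authors used HiC-Pro 2.11.4, DESeq2 and mm10. The loop caller is not given in the sources used here. Each deposited library file repeats the counts and adds a value taken as a q-value. Deposited distances, in bp, are those between anchor midpoints. All 56562 anchors begin and end at a GATC of GRCm38, the C57BL/6J assembly, so both strains were counted on B6 sequence, and the part of this in the differences was not tested.

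Start sites came from GENCODE M21. CPM is the count per 1000000 counts of the library. D2 was compared with B6 by edgeR 4.0.16 (quasi-likelihood, TMM, strain only; limma 3.58.1, R 4.3.3) over all pairs, anchors or protein-coding promoters with at least 20 counts, with Benjamini-Hochberg adjustment over all. The SE is the log2 fold change over the square root of F. The fit was tested on simulated data. DESeq2 1.42.0 and other alternatives follow the report. Named were all 10 genes, for each the pair with most counts and every called pair (otherwise the smallest p), and every called further gene; other named items were chosen after their values were seen. The values of 1 further gene are not reported here, though it counts in the list's totals. Members and lists were chosen with earlier results of these data known. Same-numbered libraries are separate lines, and their deviations correlated at 0.03 (promoters), 0.01 (anchors) and 0.00 (pairs), so numbers pair nothing.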

Additional observations from a re-analysis of the deposited data

How the results depend on the processing

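Of 18 single values (6 promoter totals, Fbrs and 11 named pairs) under 187 alternatives, 158 kept direction and side of the threshold, 11 reversed, 11 lost and 7 gained the call. Main counts were 1 pair, 0 anchors, 0 promoters and 1 further gene. Library totals alone called 3 pairs, 1 anchor and 1 promoter, where 1.43%, 11.2% and 14.1% of all features were called, DESeq2 size factors 1 promoter (13.6% of all) and no count minimum 3 pairs (0.0502% of all). A minimum of 10 counts called 0 pairs, where 0.106% of all were called. DESeq2's Wald test called 0 pairs (0.075% of all) and 0 further genes (5.53% of all promoters). The replicate block gave 0 pairs, 1 anchor and 1 promoter (Aebp2, adjusted p = 0.0237), where 1.24%, 11.4% and 14.6% of all were called, and since the numbers pair nothing this is no weaker or stronger effect. Leaving out 1 library gave 0 to 5 pairs, 0 to 1 anchors, 0 to 1 promoters and 0 to 4 further genes; the lone library of a strain is then assumed to vary like the others. The difference in median distance was 0.747 kb over pairs with at least 2 counts, and 0 to 0.626 kb without 1 library. Reversed values lay near 0. They were, with library totals, Eed 0.025, Rnf2 0.014 and the Eed to Picalm pair 0.052, and for that pair 0.027 with a minimum of 10 and 0.065 with none. Leaving out 1 library in turn gave -0.21 to 0.11 for Eed, -0.22 to 0.14 for the Picalm pair, -0.051 to 0.18 for the Aebp2 pair at 48.0 kb and -0.063 to 0.23 for the Ezh2 to Cul1 pair. Called over all pairs were 1565 as reported, 81 by DESeq2's Wald test, 235 with a minimum of 10 and 759 with none. The cause was not tested. The median scaling shift of all promoters was 0.08 with library totals and 0.01 as reported.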
